A study of Mus musculus with 15 samples.

Results

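The response of adult neural stem cells to 4-hydroxytamoxifen (4-OHT) was examined in cultures carrying 1 floxed Trrap allele, by comparing the 4-OHT-treated culture of each of 5 mice with the untreated culture of the same mouse. All libraries of these 2 groups entered the comparison, 10 of the 15 libraries of the series, chosen by genotype and treatment and paired by the number shared by their titles, read here as the mouse (19, 24, 26, 35 and 36). Adult neural stem cells (aNSCs) were isolated from the subventricular zone, the germinal layer along the lateral ventricles, and grown in suspension with EGF and bFGF, and poly(A) RNA was sequenced from them. Both groups were Trrap Fl/+ with the Rosa26-CreERT2 transgene, on the strain labelled C57BL6/J-129sv, from mice labelled 2 months old, with 3 mice labelled male (19, 35 and 36) and 2 labelled female (24 and 26). One group had no treatment and the other had 4-OHT for 5 days as labelled, while the study's methods describe a shorter exposure that was followed by fresh medium. The remaining 5 libraries were Trrap Fl/Fl cultures given 4-OHT, and they are used below only to set levels side by side.

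4-OHT is the active metabolite of tamoxifen and a selective modulator of oestrogen receptors. CreERT2 is a Cre recombinase fused to a mutated oestrogen receptor domain, which stays in the cytoplasm until 4-OHT binds it and then enters the nucleus and recombines loxP sites. Rosa26 is expressed broadly, so the transgene is expected to be present in every cell type of a culture. Trrap encodes a large scaffold protein of histone acetyltransferase complexes. The Fl/+ cultures with 4-OHT serve as the control of the Fl/Fl cultures with 4-OHT, and the question addressed here was what such a control itself does relative to cells that were never treated. A vehicle was not named for the untreated cultures and no 4-OHT-treated culture without CreERT2 is among the samples analysed here, so 4-OHT itself, its solvent, the activated recombinase and the loss of 1 Trrap allele cannot be told apart in this comparison.

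The libraries held 25.7 M to 32.2 M assigned reads each. Levels are given as CPM, read counts scaled to a common library size with TMM factors, always in the order of mice 19, 24, 26, 35 and 36, and a gene was called where edgeR's quasi-likelihood test with the mouse as a block gave an adjusted p (Benjamini-Hochberg) under 0.05. A value with ± in parentheses is a log2 fold change, 4-OHT over untreated, with its standard error (SE) from that model. The groups were separated along the first principal component (35.1% of the variance). The sex-linked genes matched the labelled sex in 4 mice, whereas both libraries of mouse 36, labelled male, held the Y-linked Ddx3y (46.8 CPM untreated and 52.1 CPM with 4-OHT) together with the X-inactivation transcript Xist (5.79 and 73.6 CPM), which was at 396 to 680 CPM in the females and under 1 CPM in the other males. The cultures expressed the stem cell intermediate filament Nes at 629 to 1269 CPM untreated and 810.4 to 1362 CPM with 4-OHT, while 10 of 14 microglial markers were at or under 3 counts in all 10 libraries.

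4-OHT treatment was accompanied by a broad change of the transcriptome. Of 14821 genes tested, 3809 were called (25.7%), 2046 higher (13.8% of those tested) and 1763 lower (11.9%), while 5815 passed 0.05 before adjustment. At least 2-fold changes were called for 621 genes that rose and 319 that fell, and at least 4-fold changes for 166 and 41. The direction was the same in 5 of 5 mice for 3492 of the called genes (91.7%), against 35.6% of all genes tested. For 1776 of the 14821 genes tested, the levels of the 2 groups did not overlap. With libraries scaled by their total count alone, 2580 genes were called higher and 1352 lower, so that 65.6% of the calls were rises in place of 53.7%. Without the mouse as a block 2044 genes were called, and 59 of 208 genes followed over the alternatives lost their call. The losses of single calls given below leave that fit out unless it is named. Without mouse 35 the calls fell to 2130 and without mouse 26 to 2215, and without mouse 24 the lower calls fell to 1149. When the test was run on 4 mice, the called genes moved in the same direction in the mouse left out for 90.6%, 92.9%, 97.4%, 97.1% and 84.0% of them, against 71.4%, 73.5%, 75.8%, 74.8% and 67.6% of all genes tested.

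**Figure D1:**
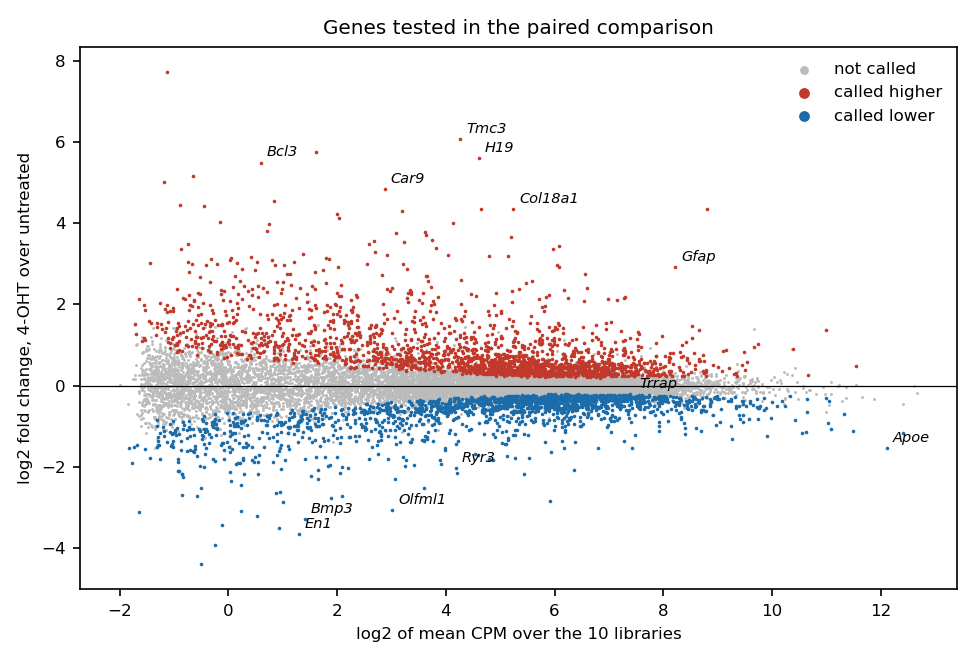
Log2 fold change after 4-OHT (vertical axis) against the log2 mean CPM of the 10 libraries (horizontal axis) for the 14821 genes tested, with genes called higher in red (2046), called lower in blue (1763) and the rest in grey. Large rises reach further from 0 than large falls, and Trrap lies close to 0.

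The calls were not even over transcript length. Among genes whose longest transcript is over 7 kb, 28.0% were called higher and 7.80% lower, while among those under 1 kb 3.61% were called higher and 12.1% lower. Transcripts under 1 kb stood above those over 7 kb by 0.53, 0.23 and 0.17 on the log2 scale in the untreated libraries of mice 19, 24 and 26, relative to each gene's mean over the libraries, and by -0.05 and -0.16 in those of mice 35 and 36. The corresponding values with 4-OHT were -0.20, -0.07, 0.05, -0.22 and -0.26, lower than in the untreated culture of each mouse. Replication-dependent histone transcripts, which have no poly(A) tail, summed to 169 to 313 CPM untreated and 59.5 to 102 CPM with 4-OHT. Once trends with transcript length and GC content were removed from each library, 3841 genes were called, 1938 higher and 1903 lower, and 3309 of the genes called before were called again in the same direction. The untreated libraries of mice 19 and 35 also stood apart from the other 8 in noncoding RNA: the small nuclear RNA Rn7sk was at 60.4 and 36.8 CPM against 1.79 to 7.26 CPM, mitochondrial rRNA summed to 2148 and 1497 CPM against 373 to 784 CPM, and long intergenic RNAs to 7978 and 12199 CPM against 3224 to 4344 CPM. With both of these mice left out, and so on 3 mice, 996 of 14922 genes tested were called, 607 higher and 389 lower. Of the 996, 974 were among the 3809 called on 5 mice, and none of those 3809 changed sign. Of the gene lists described below, hypoxia and glycolysis then held 23 higher calls and 1 lower, matrix 9 and 1, p53 targets 5 and 1, NF-kappaB 6 and none, myelin 2 and none, stem cells 2 and 4, astrocytes 1 and 1 and lysosomes 1 and 2, and no mitotic gene was called by edgeR. The homeobox list held 1 higher and 4 lower, Sox 1 and 3, Wnt 1 and 2, BMP 1 and 2, EGF and FGF 2 and 1, xenobiotic genes 2 and 2, and oligodendrocyte precursors 1 and 1. In the same fit higher calls alone were made for oestrogen (6), imprinted (5), immediate early (4), neuronal (2), stress response (2), G1 (2), interferon (1), Hedgehog (1) and stathmin genes (1), and lower calls alone for Notch (4), mitochondrial (3) and cholesterol genes (2), and no call for DNA replication, DNA methylation and the TRRAP complexes. Calls fell over all genes in this fit, so the counts of the lists are to be read against 996 of 14922. Hypoxia and glycolysis kept 23 higher calls among 41 listed genes, whereas a few calls in a list do not by themselves show a lean. No list was tested against the share of all genes. The part of these library differences in the results was not tested.

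**Figure D2:**
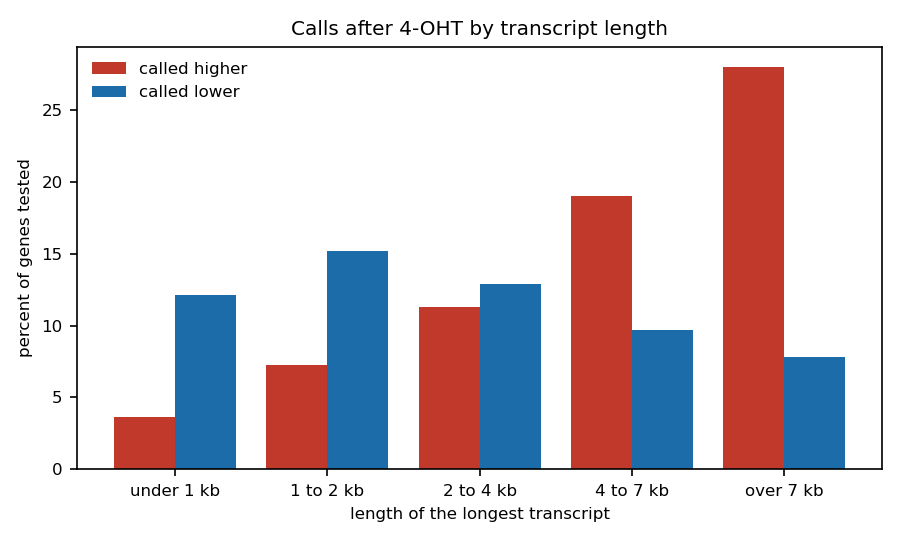
Percent of genes tested (vertical axis) that were called higher (red) or lower (blue) after 4-OHT, by the length of the longest annotated transcript (horizontal axis, 5 bins). Rises make up 3.61% of the shortest bin and 28.0% of the longest, and falls 12.1% and 7.80%.

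Trrap (ENSMUSG00000045482, plus strand of chromosome 5 from 144767732 to 144859778, GRCm38) carries the floxed allele and is the gene that recombination would affect. Untreated cultures held 189.9, 209.8, 181, 176 and 178 CPM and 4-OHT cultures 136, 201, 168, 162 and 140.3 CPM. The level was lower with 4-OHT in each of the 5 mice, by most in mice 19 and 36, but the difference did not pass the test (log2 fold change -0.22 ± 0.083, adjusted p = 0.0838). With length and GC trends removed it passed at -0.42 (adjusted p = 0.00862). An exact two-sided sign-flip test over the 5 mice gave p = 0.0625, the smallest that 5 pairs allow. Counts over the whole gene include the intact allele and any reads outside the floxed part. The Fl/Fl cultures with 4-OHT held 82.0 to 141 CPM. Among 34 tested subunits of the TRRAP acetyltransferase complexes, none was called higher and 2 were called lower, 5.88% against 25.7% of all genes, with a median log2 fold change of -0.077 beside -0.0025 for all genes. They were Vps72 (-0.36 ± 0.10) and the acetyltransferase Kat5 (-0.26 ± 0.083), and both calls were lost without mouse 19, 24 or 26 and with total-count scaling, and that of Kat5 also without mouse 35, under both other filters on low counts, without mitochondrial genes and with length and GC trends removed. 1 subunit was called higher without mouse 19 or 36, and 3 lower without mouse 36. With total-count scaling 5 subunits were called higher and none lower, and with length and GC trends removed 3 higher and 4 lower.

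The largest rises began from levels near 0. Tmc3, which encodes a transmembrane channel-like protein (ENSMUSG00000038540, plus strand of chromosome 7 from 83584927 to 83625614), was at 0.924, 0.308, 0.858, 0.379 and 0.326 CPM untreated and 55.8, 25.7, 28.1, 47.2 and 32.8 CPM with 4-OHT. The groups were far apart and every mouse rose (log2 fold change 6.07 ± 0.25, adjusted p = 1.33e-05). Of its family, 5 of 8 members were tested and Tmc3 was the 1 called, with a second called without mouse 19 or mouse 24. Sox7, a SoxF transcription factor best known from endothelium, rose from 0.249, 0.0343, 0.206, 0.0379 and 0 CPM to 9.28, 0.903, 6.02, 5.12 and 8.51 CPM (log2 fold change 5.76 ± 0.46, adjusted p = 0.000211). The imprinted long noncoding RNA H19 (ENSMUSG00000000031, minus strand of chromosome 7 from 142575529 to 142578143) rose from 0.960, 2.67, 0.515, 0.379 and 0.362 CPM to 103, 27.1, 25.6, 30.0 and 52.6 CPM (log2 fold change 5.60 ± 0.52, adjusted p = 0.000333). The untreated culture of mouse 24 had the highest H19 level among the untreated ones, and the fold change without that mouse was 6.51 on the log2 scale. Bcl3, an IkappaB-family coactivator, had at most 3 reads in any untreated library, so that its fold change (5.49 ± 0.50) rests on the prior count, and its levels with 4-OHT were 4.52, 1.09, 1.40, 2.83 and 4.97 CPM.

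Several other large rises were of secreted, matrix or membrane proteins. Col18a1, the collagen from which endostatin is cleaved (ENSMUSG00000001435, minus strand of chromosome 10 from 77052178 to 77166548), was at 4.66, 7.47, 2.06, 2.31 and 2.10 CPM untreated and 90.0, 97.1, 39.3, 80.0 and 51.2 CPM with 4-OHT, with no overlap (log2 fold change 4.35 ± 0.19, adjusted p = 1.33e-05). Dkk3, a secreted member of the Dickkopf family, was at 3.52, 0.617, 8.07, 0.682 and 1.302 CPM and 76.1, 10.1, 63.3, 30.7 and 56.8 CPM (log2 fold change 4.35 ± 0.36, adjusted p = 0.000215). The untreated levels of Dkk3 varied between mice by over 10-fold, yet each mouse rose. Anxa3, an annexin, rose by 4.30 on the log2 scale (SE 0.30), and P2ry6, a receptor for UDP, by 4.54 (SE 0.37).

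Besides Tmc3 and Col18a1, the 6 rises with the smallest p included Iffo2, Inf2, Ptprn and Fam135b. Iffo2, an intermediate filament family orphan, was at 23.8, 17.7, 21.8, 20.0 and 20.6 CPM untreated and 109.6, 92.8, 84.4, 97.8 and 87.9 CPM with 4-OHT (log2 fold change 2.19 ± 0.085, adjusted p = 1.33e-05). Inf2, a formin that severs and nucleates actin, was at 5.44, 3.87, 11.5, 6.71 and 8.54 CPM and 62.2, 41.7, 74.7, 65.8 and 74.3 CPM (log2 fold change 3.20 ± 0.13, adjusted p = 1.33e-05). Neither gene overlapped between the groups. Ptprn, a dense-core vesicle protein, rose by 2.74 (SE 0.12) and Fam135b by 3.78 (SE 0.15) on the log2 scale.

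The largest falls included regional transcription factors and a secreted antagonist of the BMP family. En1, a homeobox factor of the midbrain and hindbrain (ENSMUSG00000058665, plus strand of chromosome 1 from 120602418 to 120607992), was at 2.81, 1.51, 4.33, 7.31 and 6.66 CPM untreated and 0.0333, 0.311, 0.155, 0.341 and 1.08 CPM with 4-OHT, with no overlap (log2 fold change -3.67 ± 0.46, adjusted p = 0.00119). Bmp3 was at 4.16, 11.1, 5.18, 2.69 and 1.12 CPM and 0.266, 0.623, 0.738, 0.239 and 0.347 CPM (log2 fold change -3.28 ± 0.35, adjusted p = 0.000641). Its untreated level was lowest in mouse 36, which also showed the smallest fall. Olfml1, an olfactomedin-like secreted protein, was at 18.5, 17.2, 13.6, 14.9 and 8.18 CPM and 0.898, 2.06, 1.51, 2.08 and 1.91 CPM (log2 fold change -3.07 ± 0.28, adjusted p = 0.000333). Fam227b (-3.51 ± 0.34), Slc25a34, a mitochondrial carrier (-3.22 ± 0.37), the sulfotransferase Chst8 (-3.10 ± 0.44), Hsd11b1, which regenerates active glucocorticoid (-2.87 ± 0.20), 6330403K07Rik (-2.84 ± 0.15), Irx2 (-2.76 ± 0.32) and Cyp2j13 (-2.71 ± 0.60) completed the 10 largest. Of these 10 falls, the groups overlapped for Slc25a34, Hsd11b1, Irx2 and Cyp2j13, although each mouse fell. Over all 14821 genes tested, the groups did not overlap for 1776.

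The 6 falls of at least 2-fold with the smallest p were Ryr3, Ptprt, 6330403K07Rik, Slc14a2, Thrb and Slc7a11. Ryr3, a calcium release channel of the endoplasmic reticulum, was at 18.9, 23.4, 23.1, 50.9 and 29.3 CPM untreated and 4.76, 6.23, 5.13, 12.3 and 7.02 CPM with 4-OHT (log2 fold change -2.04 ± 0.096, adjusted p = 1.41e-05). Mouse 35 was highest in both conditions and the fall was close to 4-fold in each mouse. Thrb, the thyroid hormone receptor beta, was at 15.5, 25.9, 20.5, 30.4 and 23.5 CPM and 4.29, 9.15, 5.01, 7.75 and 6.64 CPM (log2 fold change -1.83 ± 0.12, adjusted p = 7.89e-05). Slc7a11, the cystine importer that feeds glutathione synthesis, was at 26.4, 49.2, 21.9, 37.5 and 40.1 CPM and 7.42, 18.1, 5.21, 13.1 and 13.2 CPM (log2 fold change -1.68 ± 0.11, adjusted p = 0.000101). Ptprt, a receptor tyrosine phosphatase, fell (-1.37 ± 0.070), as did the urea transporter Slc14a2 (-2.53 ± 0.16), each from untreated levels that differed between mice.

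**Figure D3:**
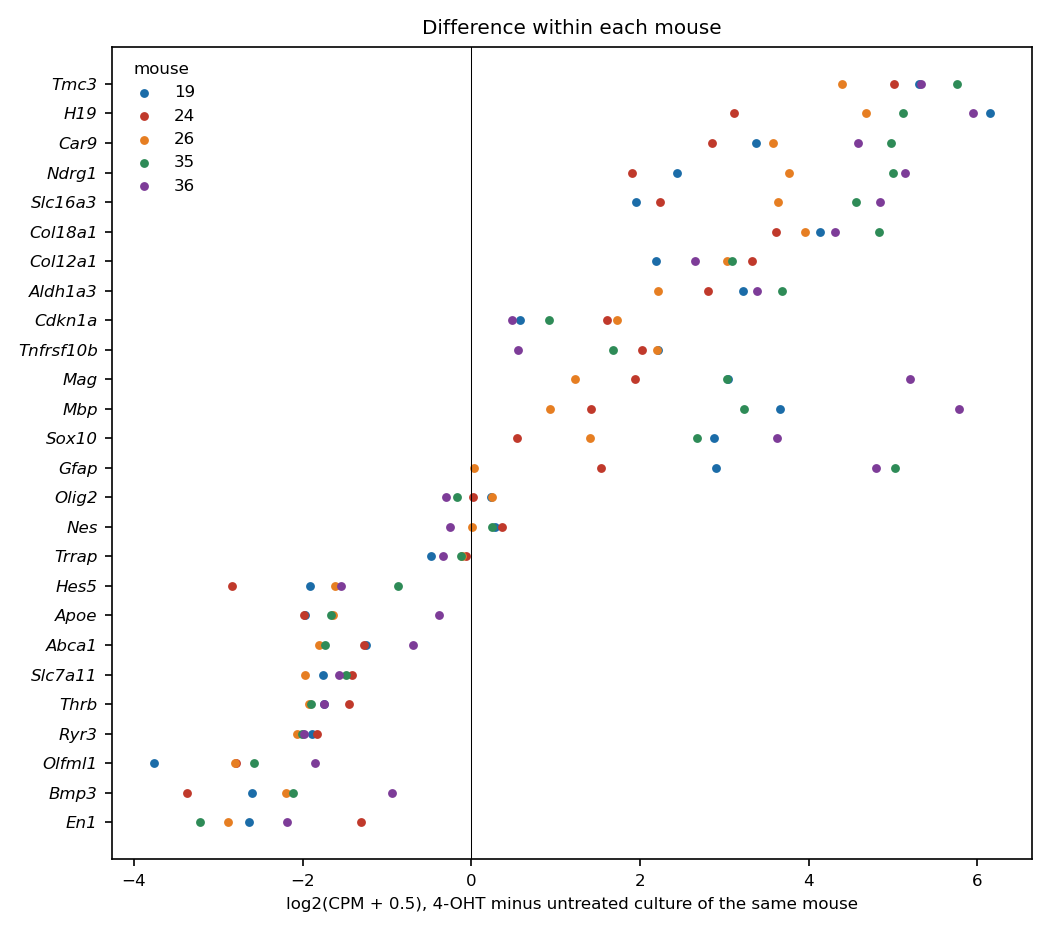
Difference in log2(CPM + 0.5) between the 4-OHT and the untreated culture of each mouse (horizontal axis, 1 point per mouse, 5 colours) for 26 genes (vertical axis). Ryr3, Thrb and Slc7a11 show 5 points close together, whereas Mbp, Mag and Gfap are spread over several log2 units.

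Genes of hypoxia and glycolysis were the list with the largest share of rises in edgeR's paired test. Mitotic genes had the larger share with DESeq2 (23 of 28 against 31 of 41) and in the unfiltered fit (24 of 28 against 33 of 41). When oxygen is low, the prolyl hydroxylases that mark HIF alpha subunits for degradation lose activity, and HIF then drives glucose uptake, glycolysis and pH control from promoters that hold a short core motif. Of 41 members, all tested, 26 were called higher and 1 lower (65.9% called, against 25.7% of all genes), with a median log2 fold change of 0.95. Per mouse the median was 0.27, 0.75, 1.12, 1.29 and 1.41, so mouse 19 moved least. Car9, the membrane carbonic anhydrase (ENSMUSG00000028463, plus strand of chromosome 4 from 43506966 to 43513729), was at 1.17, 1.27, 0.0687, 0.152 and 0.145 CPM untreated and 16.9, 12.2, 6.29, 20.0 and 15.0 CPM with 4-OHT (log2 fold change 4.85 ± 0.53, adjusted p = 0.000693). Slc16a3, the lactate exporter (ENSMUSG00000025161, plus strand of chromosome 11 from 120948480 to 120960868), was at 21.8, 42.0, 10.03, 3.41 and 2.79 CPM and 86.0, 199, 130.1, 92.1 and 94.3 CPM (log2 fold change 3.43 ± 0.47, adjusted p = 0.00168). Both genes separated the groups fully, and in both the untreated level was higher in mice 19 and 24 than in mice 35 and 36. Ndrg1, a stress-responsive gene, was at 8.18, 29.1, 2.78, 1.59 and 1.09 CPM and 46.6, 111, 44.1, 66.6 and 55.8 CPM (log2 fold change 3.66 ± 0.54, adjusted p = 0.00237), and without mouse 24, whose untreated culture stood apart, the estimate was 4.25 for Ndrg1 and 5.48 for Car9.

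Further rises covered the glucose transporters Slc2a1 (1.31 ± 0.20) and Slc2a3 (2.09 ± 0.16), the hexokinase Hk2 (2.53 ± 0.22), the collagen prolyl hydroxylase P4ha2 (3.39 ± 0.60, or 3.99 without mouse 24), the lactate dehydrogenase Ldha (0.95 ± 0.18), Pgk1 (1.14 ± 0.24), and Pdk1 (1.19 ± 0.15), which restrains pyruvate entry into mitochondria. The HIF targets Egln3 (1.49 ± 0.13) and Bnip3 (1.49 ± 0.31) rose as well. Vegfa, the angiogenic factor, was at 757, 1306, 439, 162 and 112 CPM untreated and 589, 1807, 1231, 896 and 836 CPM with 4-OHT. It was higher in 4 mice and lower in mouse 19, and did not pass the test (log2 fold change 1.40 ± 0.45, adjusted p = 0.0517), while it passed under 8 of 15 alternatives, among them DESeq2 (adjusted p = 0.0314), limma-voom (adjusted p = 0.0363), the fit without mouse 19 (adjusted p = 0.0194) and the fit without mouse 24 (adjusted p = 0.0453). The message of the factor itself, Hif1a, was at 125 to 168 CPM untreated and 112 to 153 CPM with 4-OHT (log2 fold change -0.088 ± 0.081, adjusted p = 0.456), and that of Epas1 (HIF2 alpha) did not pass either (-0.0025 ± 0.17). The 1 call in the other direction was Aldoc, a brain aldolase and a common astrocyte marker, at 747, 664, 949, 1056 and 777 CPM and 469, 452, 529, 516 and 544 CPM (log2 fold change -0.72 ± 0.097, adjusted p = 0.00161). These values describe message levels, and oxygen, cell density and protein were not measured in these files.

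The promoters of Car9, Slc16a3 and Aldoc are shown because they hold the hypoxia core motif (ACGTG or GCGTG, either strand), in capitals, although Car9 and Slc16a3 rose and Aldoc fell. They run from 250 bases before to 50 after the RefSeq start on GRCm38.p6, at chr4:43506776-43507075, chr11:120948817-120949116 and, for 1 of 2 Aldoc starts, chr11:78322823-78323122, each on the plus strand, and hold 1, 2 and 3 cores.
Car9: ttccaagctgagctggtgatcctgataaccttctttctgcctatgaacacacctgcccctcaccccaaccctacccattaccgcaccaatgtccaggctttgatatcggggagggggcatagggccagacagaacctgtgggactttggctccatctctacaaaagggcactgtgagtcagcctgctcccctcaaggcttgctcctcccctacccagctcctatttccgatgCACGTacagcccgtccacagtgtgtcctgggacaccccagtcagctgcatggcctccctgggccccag
Slc16a3: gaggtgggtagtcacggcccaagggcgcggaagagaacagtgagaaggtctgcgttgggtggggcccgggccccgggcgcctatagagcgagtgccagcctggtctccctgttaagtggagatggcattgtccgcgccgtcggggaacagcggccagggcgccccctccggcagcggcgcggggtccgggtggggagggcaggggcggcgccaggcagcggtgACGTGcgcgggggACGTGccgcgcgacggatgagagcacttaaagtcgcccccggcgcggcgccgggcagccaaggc
Aldoc: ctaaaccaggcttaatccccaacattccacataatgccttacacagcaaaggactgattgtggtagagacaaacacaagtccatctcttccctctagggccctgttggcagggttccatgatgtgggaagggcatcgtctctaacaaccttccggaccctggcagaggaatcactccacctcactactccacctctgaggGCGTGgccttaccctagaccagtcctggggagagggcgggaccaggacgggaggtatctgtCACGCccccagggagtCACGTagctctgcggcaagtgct
A window was found for 34 of the 41 genes of the list, with 49 windows in all, of which 38 held a core (77.6%). The share was 81.5% among members called higher (22 of 27 windows), 61.2% among the windows of all genes tested and 43.8% among all 32851 windows of this length. Over all genes it was 61.2% of the windows of those called higher and 58.2% of those called lower. The list was chosen for hypoxia and glycolysis, so its share describes the list and not the response. A core of 5 letters is common, and a match is not evidence of binding.

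**Figure D4:**
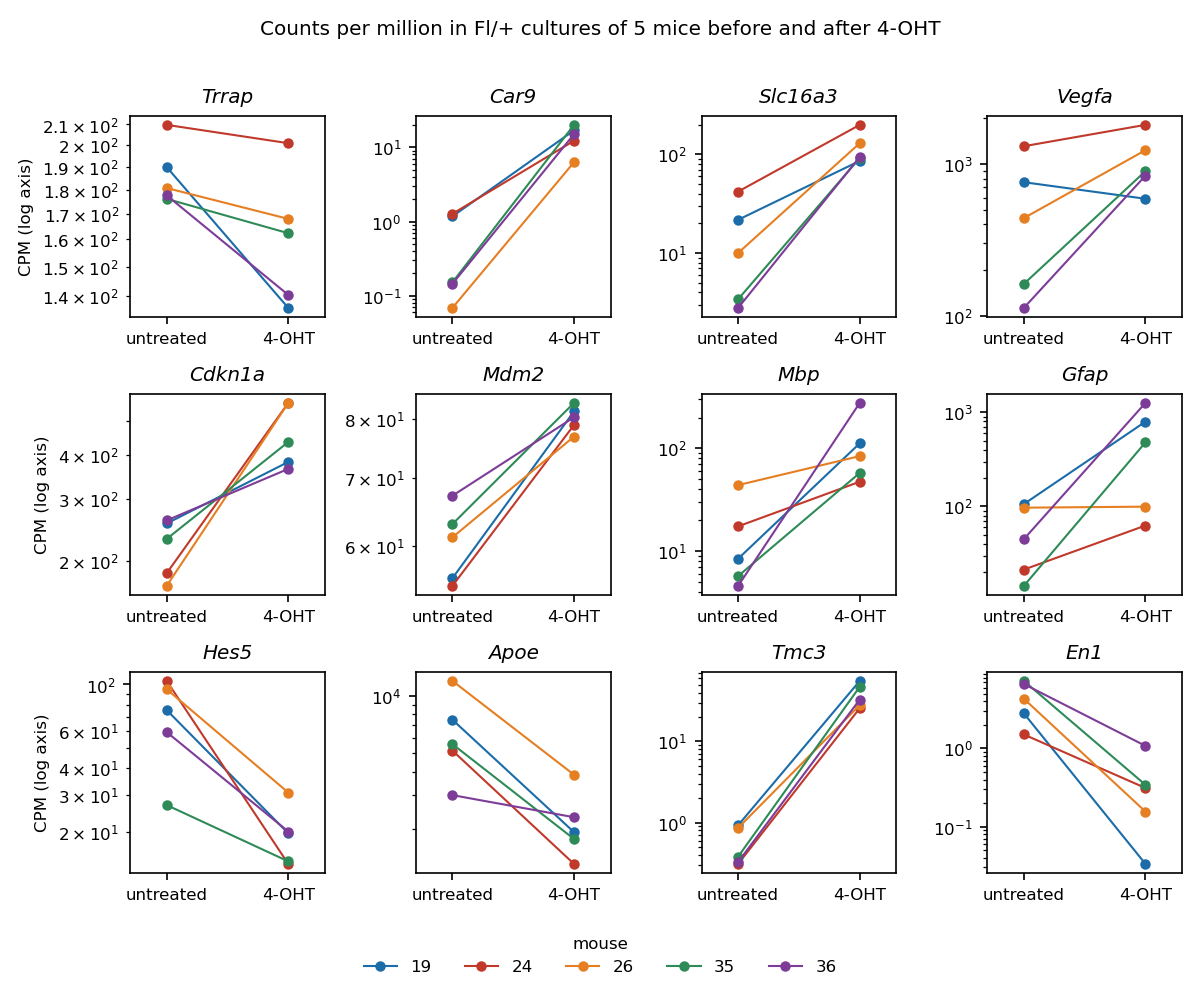
CPM (log axis, a separate range in each panel) of 12 genes in the untreated and the 4-OHT culture of each mouse, joined by a line and coloured by mouse. Car9, Slc16a3 and Tmc3 rise and En1, Hes5 and Apoe fall in every mouse, while Vegfa falls in mouse 19 and Gfap is level in mouse 26.

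Targets of p53, the transcription factor that answers DNA breaks and other stresses, also leaned towards rises. Cre activity cuts DNA at loxP sites, and p53 targets are therefore of interest in any inducible Cre culture. Of 38 members, all tested, 19 were called higher and 1 lower (52.6% called, against 25.7% of all genes), with a median log2 fold change of 0.46 and medians of 0.35, 0.82, 0.87, 0.28 and 0.11 by mouse. Without mouse 26 the higher calls were 11, and without mouse 36 the lower calls were 2. Cdkn1a, the p21 inhibitor of cyclin-dependent kinases (ENSMUSG00000023067, plus strand of chromosome 17 from 29090976 to 29100727), was at 255, 184, 169.6, 231 and 261 CPM untreated and 383, 564, 564, 436 and 366 CPM with 4-OHT (log2 fold change 1.07 ± 0.19, adjusted p = 0.00590). The groups did not overlap, and the rise was largest in mice 24 and 26. Tnfrsf10b, a death receptor for TRAIL, was at 3.13, 4.04, 2.99, 4.55 and 11.1 CPM and 16.3, 17.97, 15.5, 15.7 and 16.6 CPM (log2 fold change 1.84 ± 0.27, adjusted p = 0.00213), with the untreated culture of mouse 36 above the other untreated ones. Mdm2, the ubiquitin ligase that limits p53, was at 55.7, 54.7, 61.1, 63.0 and 67.2 CPM and 81.4, 79.0, 76.9, 83.0 and 80.4 CPM (log2 fold change 0.41 ± 0.073, adjusted p = 0.00522). Pidd1 (1.25 ± 0.18), Psrc1 (1.21 ± 0.17), the death receptor Fas (1.11 ± 0.11), Ccng1 (0.76 ± 0.16) and Zmat3 (0.77 ± 0.15) rose by similar amounts. The apoptotic genes Bax (-0.035 ± 0.11) and Bbc3 (0.011 ± 0.13) and Trp53 itself (0.059 ± 0.080) did not pass the test, and the phosphatase Ppm1d, which damps the pathway, fell (-0.45 ± 0.095).

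The promoter of Cdkn1a at chr17:29090729-29091028 (RefSeq start, GRCm38.p6, plus strand, 1 of 2 starts) is shown because it holds 2 matches to the p53 half-site, in capitals.
Cdkn1a: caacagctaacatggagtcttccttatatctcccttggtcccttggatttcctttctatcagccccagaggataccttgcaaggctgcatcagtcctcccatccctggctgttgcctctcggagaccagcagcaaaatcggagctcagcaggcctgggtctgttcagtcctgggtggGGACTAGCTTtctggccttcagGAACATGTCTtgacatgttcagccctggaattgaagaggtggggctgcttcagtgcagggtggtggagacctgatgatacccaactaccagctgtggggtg
Windows were found for 31 of the 38 genes, and 14 of their 48 windows held a half-site (29.2%), against 6.86% of the windows of all genes tested and 8.36% of all windows. Among members called higher it was 8 of 22 windows (36.4%). Among all genes called higher it was 7.3% of the windows, and among those called lower 7.17%. The list was chosen as known targets, so the share describes the list and not the response.

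Mitotic genes were mostly above their untreated level in 4 mice and below it in mouse 36. Of 28 mitotic genes, 13 were called higher and none lower in edgeR's test (46.4% called, against 25.7% of all genes), with a median log2 fold change of 0.46. The number of members above their untreated level was 27, 27, 28, 28 and 3 in the order of mice, and without mouse 36 the test called 23. DESeq2 also called 23, total-count scaling 20 and the unfiltered fit 24, and edgeR without the mouse block called none. Without mouse 19, 24, 26 or 35 the paired edgeR test called 5, 5, 2 and 2. The summed level of the list was 2350, 2412, 1167, 2223 and 3998 CPM untreated and 3151, 3454, 2209, 3634 and 3622 CPM with 4-OHT, so mouse 36 was the highest of the 5 untreated cultures. Mki67, the proliferation marker, was at 274, 325, 143, 268 and 468 CPM untreated and 382, 469, 257, 529 and 450.4 CPM with 4-OHT (log2 fold change 0.56 ± 0.14, adjusted p = 0.0224), a call lost without mouse 19, 26 or 35 (adjusted p = 0.0529, 0.0789 and 0.0769) and with length and GC trends removed. Hmmr (0.63 ± 0.13), Cenpe (0.60 ± 0.13) and Top2a (0.59 ± 0.15) were the largest rises among mitotic genes, of which Top2a was lower in mouse 36 and lost its call without mouse 19, 24, 26 or 35.

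Of 28 DNA replication and G1/S genes, 4 were called higher (14.3%, near the 13.8% of all genes), among them E2f1 (0.88 ± 0.24), Pold1 (0.55 ± 0.16) and Mcm6 (0.50 ± 0.14). DESeq2 and the unfiltered fit called 10 of them each, and total-count scaling 8. Without mouse 36 there were 20, and without mouse 19, 24, 26 or 35 there were none in the same test. The sliding clamp Pcna did not pass (log2 fold change 0.049 ± 0.14, adjusted p = 0.821). Among 16 G1 cyclins and inhibitors 3 were called higher and 1 lower (25%, near the 25.7% of all genes). Ccnd1, the cyclin that couples growth factors to G1, was at 1112, 490.0, 469, 1412 and 1538 CPM untreated and 1937, 1574, 1349, 1976 and 1571 CPM with 4-OHT (log2 fold change 0.90 ± 0.23, adjusted p = 0.0236). Its untreated level was lowest in mice 24 and 26, where the rise was largest, and the call was lost without mouse 19, 24 or 26 (adjusted p = 0.0579, 0.0521 and 0.0775). The inhibitor Cdkn2b rose (0.66 ± 0.16) and Cdkn1b (p27) fell (-0.26 ± 0.079), the first call being lost without mouse 35 and the second without mouse 19, 24, 26 or 35, with total-count scaling, under both other filters on low counts and without mitochondrial genes.

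Markers of the cell types that neural stem cells give rise to moved in different directions. In bulk RNA a change in the number of cells of a type and a change of RNA per cell cannot be told apart. Among 20 tested genes of myelin and mature oligodendrocytes, 7 were called higher and 1 lower (40%, against 25.7% of all genes), with medians of 1.01, -0.38, 0.05, 0.81 and 1.48 by mouse. Mag, a myelin-associated glycoprotein, was at 1.17, 0.411, 2.78, 0.417 and 0.181 CPM untreated and 13.3, 2.99, 7.22, 7.03 and 24.5 CPM with 4-OHT (log2 fold change 3.50 ± 0.64, adjusted p = 0.00609). Mbp, the myelin basic protein, was at 8.39, 17.4, 43.9, 5.68 and 4.56 CPM and 112, 47.4, 84.1, 57.7 and 278 CPM (log2 fold change 2.96 ± 0.67, adjusted p = 0.0148). The rises of both were largest in mouse 36 and smallest in mouse 26. Mbp lost its call without mouse 19 (adjusted p = 0.0559) or 35 (adjusted p = 0.0543), and the log2 fold changes without mouse 36 and without mouse 26 were 2.31 and 3.56 for Mbp and 2.84 and 4.23 for Mag. The list held 4 higher calls without mouse 19 or mouse 35, and 3 lower calls without mouse 36. With at least 10 counts in every library, which drops members near 0 in 1 group, 4 were called higher, and in the unfiltered fit 11. The fall was in Aspa, which splits N-acetylaspartate (-1.99 ± 0.30).

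Of 16 genes of oligodendrocyte precursors, 4 were called higher and 2 lower (37.5%, against 25.7% of all genes). Sox10, the lineage factor, was at 14.8, 52.0, 36.4, 10.8 and 9.08 CPM untreated and 112, 76.2, 97.1, 71.8 and 117 CPM with 4-OHT (log2 fold change 2.24 ± 0.42, adjusted p = 0.00669), with the smallest rises in mice 24 and 26. The PDGF receptor Pdgfra rose (1.55 ± 0.38), a call lost without mouse 19 or 35, as did the ligand Bmp4 from under 1 CPM (2.37 ± 0.38). The lineage factor Olig2 stayed within 736 to 864 CPM untreated and 701 to 992 CPM with 4-OHT (log2 fold change 0.0061 ± 0.10, adjusted p = 0.971), while Olig1 fell (-0.38 ± 0.10), a call lost without mouse 19, 35 or 36, and so did Sox8 (-0.71 ± 0.11).

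Among 17 astrocyte genes 9 were called lower and 3 higher (70.6%, against 25.7% of all genes). Apoe, the main lipid carrier of astrocytes, was at 7502, 5162, 12004, 5581 and 3006 CPM untreated and 1918, 1306, 3847, 1766 and 2299.8 CPM with 4-OHT (log2 fold change -1.54 ± 0.23, adjusted p = 0.00228). The fall was near 4-fold in mice 19 and 24 and smallest in mouse 36, where the untreated level was the lowest. S100b (-1.77 ± 0.23), the connexin Gjb6 (-1.84 ± 0.44), Agt (-1.12 ± 0.34) and Ndrg2 (-0.89 ± 0.14) fell too, Gjb6 losing its call without mouse 19, 26 or 35 and Agt without mouse 19, 24, 26 or 35. Gfap, the intermediate filament of astrocytes and of stem cells in this niche, went the other way, from 106, 21.3, 97.0, 14.3 and 44.9 CPM to 796, 62.7, 99.4, 480.0 and 1261 CPM (log2 fold change 2.91 ± 0.76, adjusted p = 0.0255). Gfap was level in mouse 26, rose by over 10-fold in mice 35 and 36, and lost its call without mouse 19, 35 or 36 (adjusted p = 0.0786, 0.0726 and 0.0522). Its estimate was 3.61 without mouse 26 and 2.31 without mouse 35. Clu (log2 fold change 1.16, adjusted p = 0.0123) and Aldh1l1 (log2 fold change 0.26, adjusted p = 0.0451) were also called higher. The call of Clu was lost without the mouse block. That of Aldh1l1 was lost there too, with DESeq2 size factors, without any 1 mouse and with length and GC trends removed. Without mouse 19 or 26, 5 of the list were called lower, and without mouse 19, 35 or 36 1 was called higher.

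Among 20 stem cell genes 5 were called higher and 7 lower (60% called, against 25.7% of all genes), with a median log2 fold change of -0.14. Hes5, the Notch effector of quiescent and early stem cells, was at 75.7, 104, 95.0, 26.8 and 59.5 CPM untreated and 19.7, 14.1, 30.7, 14.5 and 20.0 CPM with 4-OHT (log2 fold change -1.78 ± 0.24, adjusted p = 0.00152). Vcam1 (-1.14 ± 0.17), the glutamate transporter Slc1a3 (-0.69 ± 0.11) and Sox2 (-0.39 ± 0.11) fell, Sox2 losing its call without mouse 19, 24, 26 or 35, with total-count scaling and with length and GC trends removed. Tnc (1.48 ± 0.19), Cd44 (0.74 ± 0.091) and Prom1 (1.08 ± 0.28, a call lost without mouse 35) rose, and Nes (log2 fold change 0.13 ± 0.11, adjusted p = 0.393) and Egfr (log2 fold change -0.18 ± 0.096, adjusted p = 0.198) did not pass, although Egfr passed with length and GC trends removed. Of 21 tested neuronal genes 6 were called higher and 4 lower (47.6%), with 2 lower calls without mouse 26 or 35, and the neuroblast marker Dcx did not pass (log2 fold change 0.064 ± 0.29, adjusted p = 0.892). Few markers of other brain cells passed the filter on low counts: 1 of 14 microglial, 4 of 14 endothelial, 6 of 12 pericyte or fibroblast and 5 of 10 ependymal genes. At or under 3 counts in all 10 libraries were 10, 4, 3 and 3 genes of these lists. Summed levels were 2.17 to 2.60 CPM untreated and 2.58 to 4.02 CPM with 4-OHT for microglia and 20.2 to 29.8 and 29.0 to 69.3 CPM for endothelium, within which Flt1, a VEGF receptor, rose (1.06 ± 0.14).

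**Figure D5:**
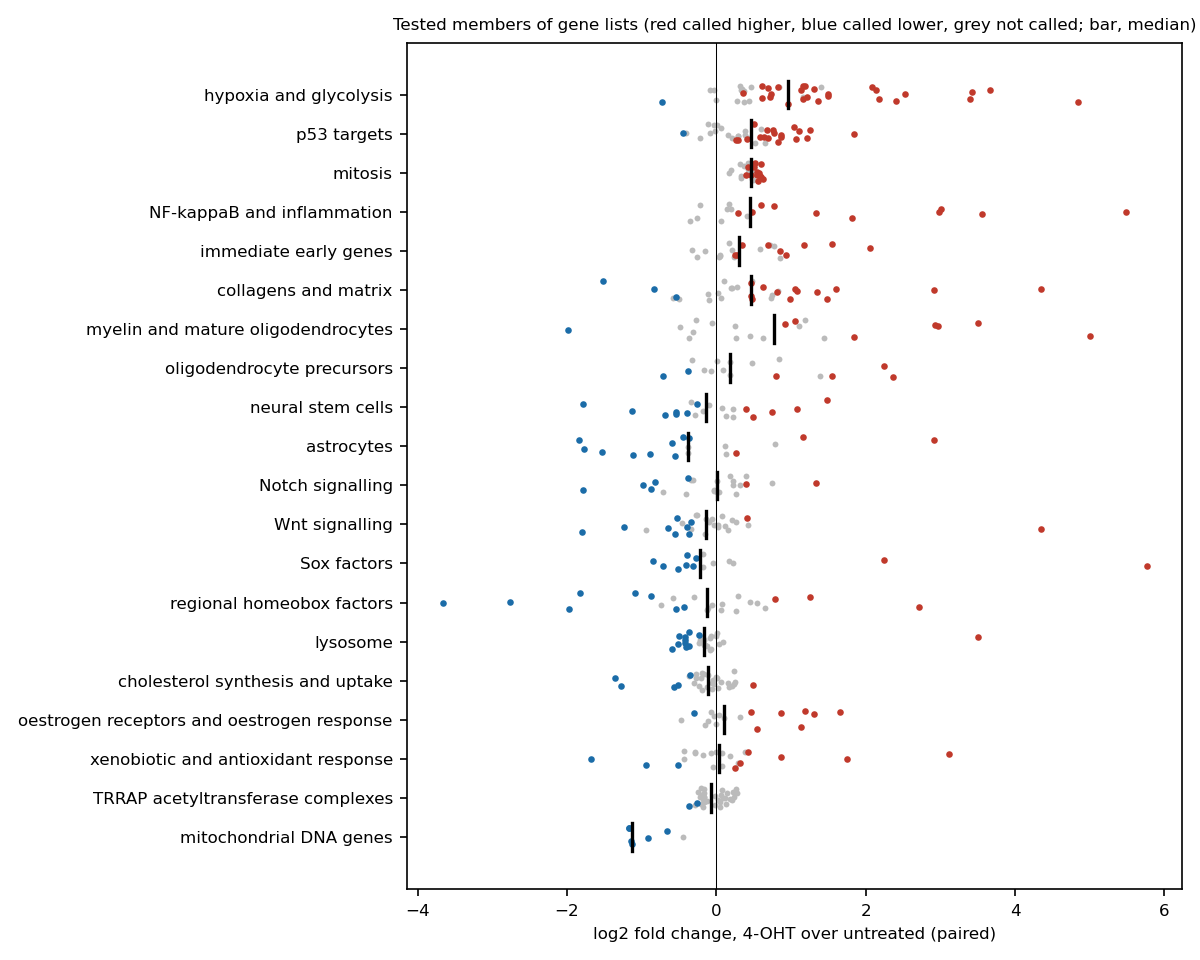
Log2 fold change after 4-OHT (horizontal axis) of every tested member of 20 gene lists (vertical axis), 1 point per gene, red if called higher, blue if called lower and grey if not called, with a black bar at the list's median. Medians run from 0.95 for hypoxia and glycolysis to -1.13 for mitochondrial DNA genes, and the homeobox and Sox lists hold large changes in both directions.

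Inflammatory and immediate early genes changed upwards where they were called. Of 18 tested genes of NF-kappaB signalling, 10 were called higher and none lower in edgeR's test (55.6%, against 25.7% of all genes), with a median log2 fold change of 0.44. Lif, a cytokine that acts on neural stem cells, was at 1.53, 0.617, 1.79, 0.834 and 0.326 CPM untreated and 16.3, 6.51, 7.50, 13.7 and 14.7 CPM with 4-OHT (log2 fold change 3.56 ± 0.40, adjusted p = 0.000792). The adhesion molecule Icam1 (2.98 ± 0.35), the adaptor Traf1 (3.002 ± 0.41) and the feedback inhibitor Socs3 (1.82 ± 0.37) rose as well. The subunits Nfkb1 (0.20 ± 0.067) and Rela (0.17 ± 0.075) and the inhibitor Nfkbia (0.056 ± 0.16) did not pass, except Nfkb1 with total-count scaling (adjusted p = 0.0278) and with at least 10 counts in every library (adjusted p = 0.0458). Without mouse 35 or 36, 1 gene of the list was called lower, and with at least 10 counts in every library, which drops members near 0 in 1 group, 7 were called higher and the median was 0.21. Of 22 immediate early genes 9 were called higher and none lower (40.9%), or 5 without mouse 19 or mouse 35, led by Ier3 (2.06 ± 0.24), Fosl2 (1.54 ± 0.31) and Egr3 (1.18 ± 0.12). Fos did not pass (log2 fold change 0.77 ± 0.25, adjusted p = 0.0558), but passed without mouse 24 (adjusted p = 0.0131), with total-count scaling (adjusted p = 0.0456) and in the unfiltered fit (adjusted p = 0.000824). Of 19 tested interferon and antigen presentation genes 4 were called higher and 1 lower, near the share of all genes, with none higher without mouse 26 or 35 and 2 without mouse 36, and none lower without mouse 19, 24 or 26.

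Of the signalling lists of the niche, Notch (30.4% called), BMP (25%) and Hedgehog (21.4%) lay near the 25.7% of all genes, and Wnt was at 35.7%. In the Notch list, 5 of 23 genes were called lower, Hes5 with Nrarp (-0.99 ± 0.095), Dner (-0.88 ± 0.16), Mfng (-0.82 ± 0.15) and Dll1 (-0.37 ± 0.069), and 2 higher, the ligand Dll4 (1.34 ± 0.29) and the receptor Notch1 (0.39 ± 0.081, a call lost with length and GC trends removed). In the Wnt list, 8 of 28 tested genes were called lower, among them the ligand Wnt3 (-1.80 ± 0.28) and the receptor-degrading ligase Rnf43 (-1.24 ± 0.16), and 2 higher, Dkk3 and Lrp5, the latter not with length and GC trends removed, while the common target Axin2 did not pass (log2 fold change 0.018 ± 0.12, adjusted p = 0.924). Without mouse 19 or 35 the lower calls in the Wnt list were 5. The BMP list had 3 higher and 4 lower calls of 28 tested, and its target Id1 did not pass (log2 fold change -0.39 ± 0.17, adjusted p = 0.125) except without mouse 36 (adjusted p = 0.0224). Bmp4 was among its rises, and Bmp3, Id4 (log2 fold change -1.54) and the antagonist Nog (-1.26) were among its falls. The Hedgehog list had 2 higher and 1 lower of 14, with 1 higher without mouse 19, 24 or 35 and none lower without mouse 35, and its target Gli1 was too low to be tested (0.0724 to 0.548 CPM untreated and 0.174 to 0.375 CPM with 4-OHT). Of 22 EGF and FGF receptors and feedback genes (40.9% called), 6 were called higher, led by Erbb3 (2.55 ± 0.52, or 3.21 without mouse 26), Dusp4 (1.29 ± 0.16) and Spry4 (0.92 ± 0.21), and 3 lower, or 1 without mouse 19.

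Positional and Sox factors split by member. Of 24 tested regional homeobox genes (45.8% called, against 25.7% of all genes) 8 were called lower, En1 and Irx2 with Irx3 (-1.97 ± 0.33) and Irx5 (-1.83 ± 0.34) as the largest. The ventral forebrain factors Gsx2 (2.71 ± 0.51), Gsx1 (1.26 ± 0.15) and Dlx1 (0.79 ± 0.18, a call lost without mouse 26) were called higher. The Gsx2 estimate without mouse 24 was 3.55. With at least 10 counts in every library, which drops members near 0 in 1 group, 4 homeobox genes were called lower. The median of the list was then -0.020 in place of -0.125. Of 14 tested Sox genes (64.3% called), 7 were called lower, from Sox4 (-0.27 ± 0.074, a call lost without mouse 24, 26, 35 or 36 and with total-count scaling) to Sox1 (-0.85 ± 0.098), and 2 higher, Sox7 and Sox10.

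Matrix genes rose more often than they fell. Of 30 tested, 13 were called higher and 3 lower (53.3%, against 25.7% of all genes), with a median of 0.47, but 8 higher without mouse 26 and 8 with length and GC trends removed. Col12a1, a fibril-associated collagen, was at 13.3, 31.4, 6.83, 8.90 and 12.7 CPM untreated and 62.8, 320.0, 59.7, 79.6 and 82.5 CPM with 4-OHT (log2 fold change 2.92 ± 0.16, adjusted p = 3.24e-05). Mouse 24 stood far above the others in both conditions, and each mouse rose. Col6a1 (1.61 ± 0.17) and fibronectin Fn1 (1.35 ± 0.15) rose, and the perineuronal matrix genes Hapln1 (-1.52 ± 0.46, a call lost without mouse 19, 26 or 35 and with DESeq2 or limma-voom) and Bcan (-0.83 ± 0.086) fell.

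Imprinted genes are expressed from 1 parental copy. Of 28 tested, 9 were called higher and 5 lower (50%, against 25.7% of all genes). With at least 10 counts in every library, which drops members near 0 in 1 group, 5 were called higher. The 9 higher calls included maternally expressed noncoding RNAs of 2 clusters: H19, and Meg3 with Rian on chromosome 12. Meg3 was at 0.462, 0.308, 0.755, 1.48 and 0.687 CPM untreated and 9.28, 1.59, 4.74, 4.44 and 6.57 CPM with 4-OHT (log2 fold change 2.81 ± 0.37, adjusted p = 0.00142), and Rian at 0.142, 0.103, 0.584, 0.644 and 0.724 CPM and 7.02, 0.903, 2.45, 3.24 and 4.48 CPM (log2 fold change 2.97 ± 0.45, adjusted p = 0.00253). Mouse 24 had the lowest level of both with 4-OHT. Igf2, the neighbour of H19, did not pass the filter on low counts, and the falls, led by Nnat (-0.55 ± 0.12), were 3 without mouse 24, 26 or 35. Of 15 tested genes of DNA methylation 3 were called higher (20%, below the 25.7% called of all genes, and 1 gene without mouse 19, 26 or 35 or 6 with total-count scaling), among them the imprint-protecting zinc finger Zfp57 (0.77 ± 0.24), a call lost without mouse 19, 26, 35 or 36 and with limma-voom, and the maintenance enzyme Dnmt1 (0.43 ± 0.11), a call lost without mouse 19, 24, 26 or 35. Of 17 tested stathmin and tubulin genes with their regulator Sp1, 6 were called higher and 1 lower (41.2%, against 25.7% of all genes), with 2, 3 and 2 higher without mouse 24, 26 and 35. The tubulins Tuba8 (log2 fold change 1.02) and Tubb6 (0.76) were among the rises, and the fall was Tuba4a (-1.33). Tuba8 lost its call without mouse 19, 24, 35 or 36. Sp1 (log2 fold change 0.40 ± 0.10, adjusted p = 0.0225) lost its call without mouse 24, 26 or 35, Stmn4 rose (0.69 ± 0.10) and Stmn3 did not pass (log2 fold change -0.15 ± 0.089, adjusted p = 0.244). Without the mouse block no gene of this list was called higher.

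Since 4-OHT binds oestrogen receptors, their genes were examined. Esr1, the alpha receptor, was at 2.13, 2.81, 1.82, 2.73 and 3.44 CPM untreated and 2.46, 2.06, 2.18, 3.003 and 3.09 CPM with 4-OHT (log2 fold change -0.0042 ± 0.18, adjusted p = 0.988), with no difference in either direction beyond its error. Esr2 was at or under 3 counts in most libraries and was not tested. Gper1, a membrane oestrogen receptor to which tamoxifen metabolites bind, was at 14.9, 12.5, 9.82, 10.2 and 9.91 CPM and 23.6, 38.5, 33.7, 22.5 and 16.4 CPM (log2 fold change 1.19 ± 0.18, adjusted p = 0.00261). Of 17 tested genes of the oestrogen list 7 were called higher and 1 lower (47.1%, against 25.7% of all genes), the lower call being lost without any 1 mouse. The higher calls included the classical target Greb1 (1.14 ± 0.17), the retinoic acid receptor Rara (1.65 ± 0.30) and Stc2 (0.87 ± 0.14). A full oestrogen response element (GGTCA and TGACC with any NNN between) was found in 0 of the 26 promoter windows of the list and in 23 of all 32851 windows (0.07%).

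Of 22 tested xenobiotic and antioxidant genes 6 were called higher and 3 lower (40.9%, against 25.7% of all genes). The cytochrome P450 gene Cyp2d22 (3.11 ± 0.36), the efflux pump Abcc1 (0.87 ± 0.083) and the antioxidant regulator Nfe2l2 (0.42 ± 0.092) were among the rises and Slc7a11 among the falls, while haem oxygenase Hmox1 fell (-0.51 ± 0.14, a call lost without mouse 19, 26, 35 or 36 and with length and GC trends removed). The cytochrome Cyp1b1, a target of the aryl hydrocarbon receptor, was at 0.470 to 2.88 CPM untreated and 0.660 to 1.40 CPM with 4-OHT (log2 fold change -0.44 ± 0.28, adjusted p = 0.283). Cationic amphiphilic drugs such as tamoxifen can accumulate in lysosomes and inhibit the sterol enzyme EBP. Of 27 lysosomal genes 10 were called lower and 1 higher (40.7%), with 5 lower without mouse 24, 26 or 35. The falls were small, with that of Lamp1 (-0.59 ± 0.084) the largest of the 10, and the rise was Gpnmb, a glycoprotein often induced in stressed lysosomes (3.50 ± 0.46). Among 31 tested genes of cholesterol synthesis and uptake 5 were called lower and 1 higher (19.4% called, below the background), with none higher without mouse 19, 24, 26 or 35 and 3 without mouse 36. Abca1, the exporter of cholesterol to apolipoproteins, was at 176, 147, 327, 345 and 144 CPM untreated and 73.6, 60.6, 92.8, 104 and 88.8 CPM with 4-OHT (log2 fold change -1.36 ± 0.15, adjusted p = 0.000809). Abcg1 (-1.27 ± 0.18) and Srebf1 (-0.57 ± 0.10) fell, and Ebp (log2 fold change -0.16 ± 0.11, adjusted p = 0.328) did not pass. In the list of the integrated stress response and ER chaperones 3 of 24 genes were called higher and 4 lower (29.2%, near the share of all genes), and Atf4 did not pass (log2 fold change -0.26 ± 0.098, adjusted p = 0.0841). The rises were Trib3 (log2 fold change 1.59), Vldlr (1.00) and Sdf2l1 (0.34), and the falls included Phgdh (-0.79), Slc3a2 (-0.54) and Slc7a5 (-0.49). Sdf2l1 lost its call without mouse 19, 26, 35 or 36 and in the unfiltered fit, and Slc7a5 without mouse 19 or 35.

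Transcripts of mitochondrial DNA took up 1.72%, 2.39%, 2.71%, 3.56% and 2.24% of the counts in untreated libraries and 1.74%, 0.849%, 1.16%, 1.52% and 1.73% in 4-OHT libraries. The share was lower in 4 of 5 mice and level in mouse 19, with a mean difference of -1.12 percentage points (exact two-sided sign-flip test p = 0.125, the smallest possible being 0.0625). Of 13 mitochondrial mRNAs 7 were tested and 6 were called lower, where 11.9% of all genes were called lower, but only 1 without mouse 26 or mouse 35. The cytochrome b message mt-Cytb was at 4760.4, 7118, 8856, 10031 and 6439.6 CPM untreated and 4312, 1745, 2728, 4022 and 4206 CPM with 4-OHT (log2 fold change -1.16 ± 0.26, adjusted p = 0.0141), with an adjusted p of 0.0507 without mouse 26 and 0.0513 without mouse 35. The other 6 were at or under 3 counts in all libraries.

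The 4-OHT effect was also compared between the 2 female and the 3 male mice as labelled. The difference passed the test for 16 of 14821 genes (0.108%). Of these, 13 were ribosomal protein copies or genes with Gm names, 3 of them annotated as protein-coding (Rpl10-ps3, Gm2000 and Rps27rt), or the neuronal noncoding RNA Bc1, and all 13 had a more positive effect in females, by 2.83 to 4.83 on the log2 scale. Their untreated level was lower in mice 24 and 26 than in the other 3 mice. Gm10175 was at 11.1, 1.47, 1.24, 6.67 and 5.43 CPM untreated and 5.72, 8.44, 8.47, 4.13 and 3.44 CPM with 4-OHT. Of the other 3 genes, Socs3 rose more in males (female minus male -1.97). Chd3 was higher with 4-OHT in the 3 males and lower in both females (-1.37), and Ndrg4 was lower in the males and higher in the females (1.14). Mouse 36, whose libraries held Xist besides Ddx3y, entered as male as labelled, and without it the test called 13 genes. The number depended on single animals, from 571 without mouse 19 to 1 without mouse 26 and 0 without mouse 24 or 35, and with 2 females labelled sex cannot be told apart from those 2 mice.

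Levels in the 5 Fl/Fl cultures given 4-OHT, which share the treatment and differ in genotype, stood beside these values as follows. Tmc3 was at 25.7 to 84.6 CPM, Col18a1 at 35.0 to 96.8 CPM and En1 at 0.101 to 0.277 CPM. For Car9 the range was 3.23 to 23.1 CPM, for Cdkn1a 343 to 421 CPM and for Mki67 96.4 to 206 CPM. The ranges of Tmc3, Col18a1, Car9, Cdkn1a and En1 did not reach the untreated Fl/+ range, and no test was made, since the genotype comparison lies outside this one.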

How the data were processed

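Poly(A) RNA of aNSC cultures was made by the authors into strand-specific libraries, pooled, and sequenced as short single-end reads. The authors mapped reads to GRCm38 with STAR (2.5.4b per the submitters' processing notes) and deposited raw counts of uniquely mapped reads per Ensembl gene from featureCounts (1.5.0), with no normalization. Near-identical paralogs and pseudogenes are therefore undercounted, and PCR copies cannot be told from separate molecules. The dose of 4-OHT is left out because labels and methods disagree on it, as they do on the length of exposure.

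Counts of the 10 Fl/+ libraries were analysed with edgeR 4.0.16 (R 4.3.3): filterByExpr with a minimum count of 10, TMM scaling, the quasi-likelihood F test on treatment with the mouse as a block, and Benjamini-Hochberg adjustment over all 14821 genes tested, with calls under 0.05. The p-values measure the spread between these cultures of 5 mice. Pairing came from the numbers shared by library titles, with the same labelled sex in each pair: deviations from the group means correlated at 0.152 to 0.634 within a mouse and -0.559 to 0.350 between mice. The labelled sex difference was an interaction term. At 25.7 M to 32.2 M reads, 3 counts, taken as the floor of detection, are 0.0934 to 0.117 CPM. In simulated counts with the same pairing (14631 genes, 200 of them changed), 48% of 1.5-fold, 82% of 2-fold, 92% of 4-fold and 100% of 8-fold changes were recovered, with 7 unchanged genes called. In the data 3809 genes were called, and the simulation held no shared library differences such as those over transcript length. Its values therefore do not give the error rate of the real comparison.

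The comparison, the gene lists and the motifs were chosen with earlier results of these data known. Named genes were Trrap, and the 10 largest rises and falls among called genes that averaged 1 CPM or more and moved 1 way in all mice. Added to these were the 6 smallest p each way at 2-fold or more. From each list came genes of the 3 largest called changes each way and defining members, but not every gene so picked is named. Other genes named were taken from the lists after their values were seen. Alternatives were the fit without the block, DESeq2 1.42.0, limma-voom (limma 3.58.1), DESeq2 size factors, total-count scaling, other filters, mitochondrial genes left out and each mouse left out. Added after seeing the data were the removal of transcript length and GC trends by lowess offsets per library, leaving out each mouse in the sex comparison, and leaving out mice 19 and 35 together. Symbols, coordinates and the longest transcript of 14804 tested genes came from GENCODE on GRCm38. Promoters are RefSeq windows on GRCm38.p6, found for 10865 tested genes. Some genes and results are not reported here.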

Additional observations from a re-analysis of the deposited data

Results flagged for a closer look

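Single libraries stood apart from the other 4 of their group in 17 of 290 groups examined (5.86%), where chance gives about 1 in 20. The untreated culture of mouse 24 was above the others for H19 (2.67 CPM against 0.362 to 0.960), Ndrg1 (29.1 against 1.09 to 8.18) and Col12a1 (31.4 against 6.83 to 13.3), and its 4-OHT culture for Col12a1 (319.97 CPM against 59.7 to 82.5). Mouse 36 stood apart for Mbp with 4-OHT (278 CPM against 47.4 to 112) and for untreated Tnfrsf10b (11.1 against 2.99 to 4.55).

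For the log2 difference between the cultures of a mouse, mouse 36 was apart for Apoe (-0.39, the others -1.98 to -1.64) and the methyltransferase Dnmt1 (-0.081, the others 0.49 to 0.60). Mouse 19 was apart for progranulin Grn (-0.95, the others -0.47 to -0.34), the Notch effector Hes1 (-1.08, the others -0.21 to -0.050), the retinoic acid receptor Rarb (1.13, the others 1.57 to 1.74), Vldlr (0.69, the others 1.02 to 1.12), the HIF target Egln3 (0.83, the others 1.59 to 1.67) and Stc2 (0.22, the others 0.88 to 1.13). Mouse 35 was apart for S100b (-2.92, the others -1.60 to -1.25) and Tnc (2.46, the others 1.08 to 1.297), and mouse 24 for the Wnt receptor Fzd8 (-0.26, the others -0.79 to -0.65).

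The 4-OHT effect differed between mice labelled female and male by the interaction term for 16 genes, with 1989 at an unadjusted p under 0.05. Female minus male, the log2 differences were 3.41 for Gm10175, 3.67 for Gm5781, 3.36 for Rpl31-ps8, 4.14 for Rpl10-ps3, 3.79 for Gm15501, 4.32 for Bc1, 2.85 for Gm10086, 4.83 for Gm10076, 3.06 for Gm10275, 3.50 for Gm2000, 3.83 for Rps27rt, 2.83 for Rpl10a-ps1 and 3.01 for Gm11539. They were 1.14 for Ndrg4, -1.37 for the chromatin remodeller Chd3 and -1.97 for Socs3. Among them, Bc1 was at 72.5, 5.24, 4.12, 47.9 and 20.1 CPM untreated and 15.6, 30.1, 42.2, 21.1 and 12.0 CPM with 4-OHT. Socs3 was at 6.29, 7.37, 9.37, 3.75 and 3.94 CPM untreated and 31.1, 10.2, 16.5, 25.5 and 27.4 CPM with 4-OHT, higher with treatment in all 5 mice.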

How the results depend on the processing

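No gene called in the paired fit took the opposite sign under any of the 15 alternatives. Without the replicate block 2044 genes were called (1088 higher and 956 lower), 2033 of them shared with the paired fit, and none for the sex difference. Of 208 genes followed over the alternatives, 59 lost their call there. Among them were Mki67, Stmn4 (adjusted p = 0.28), Cd44 (adjusted p = 0.134), Sox1, Sox8, Mfng, Dll1, Abcg1 and Egr3. Of the lists, neuronal genes then held none higher and 1 lower, Sox factors 2 and 1 and lysosomal genes 1 and 3. DESeq2, limma-voom, DESeq2 size factors, both filters, total-count scaling, leaving out mitochondrial genes and removing length and GC trends gave 3539 to 4318 calls. The unfiltered fit tested 28745 genes in place of 14821. Called genes of at least 2-fold numbered 605 with at least 10 counts in every library, where genes low in 1 group drop out by construction. Total-count scaling gave 27 genes for the sex difference, and Trrap was at -0.42 with length and GC trends removed; the cause was not tested. With mice 19 and 35 both left out, which leaves 3 mice, 996 genes were called, 607 higher, 389 lower and 488 of at least 2-fold.

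Leaving out 1 mouse at a time gave 2130 to 3578 calls, 1196 to 1928 higher and 934 to 1650 lower, and 0 to 571 for the sex difference. The mitochondrial share moved by -1.41 to -0.90 points and Trrap by -0.25 to -0.15.

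The following genes, none called in the paired fit, changed sign. Without the block Pcna was at -0.015, Epas1 at 0.0086 and Nfkbia at -0.0089, and with limma-voom Bbc3 was at -0.0022. Olig2 was at -0.0017 with DESeq2 and with its size factors. With total-count scaling Esr1 was at 0.051, Epas1 at 0.053 and Bax at 0.020, with 10 counts in every library Esr1 at 0.011 and Epas1 at 0.013, and without mitochondrial genes Esr1 at 0.0072 and Epas1 at 0.0088. With length and GC trends removed Axin2 was at -0.035, Dcx at -0.039, Bax at 0.073 and Nes at -0.00036, and without mice 19 and 35 Dcx was at -0.060, Olig2 at -0.012, Bax at 0.075 and Epas1 at 0.22. With 1 mouse left out the values spanned -0.10 to 0.084 for Axin2, -0.11 to 0.063 for Bax, -0.062 to 0.18 for Bbc3, -0.22 to 0.28 for Dcx, -0.18 to 0.16 for Epas1, -0.066 to 0.12 for Esr1, -0.11 to 0.19 for Nfkbia, -0.053 to 0.078 for Olig2 and -0.073 to 0.18 for Pcna. List medians changed sign for neuronal, oligodendrocyte precursor, imprinted, xenobiotic, Notch and Hedgehog genes, each within 0.11 of 0.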

Other observations

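Genes of retinoid handling were chosen after their values were seen, so their counts are a description. Retinol is oxidised to retinoic acid by aldehyde dehydrogenases, and the acid acts on RAR receptors and is removed by CYP26 enzymes. Of 17 genes listed 12 were tested, 6 were called higher and 1 lower, and 5 were not called, where 13.8% of all genes were called higher. Aldh1a3, which makes retinoic acid, was at 1.92, 0.754, 0.755, 1.89 and 1.52 CPM untreated and 22.0, 8.28, 5.32, 30.4 and 20.7 CPM with 4-OHT (log2 fold change 3.55 ± 0.19, adjusted p = 2.35e-05). Rarb, a receptor gene that retinoic acid itself induces in many cells, was at 33.2, 25.9, 30.0, 21.1 and 21.9 CPM and 73.1, 87.5, 90.2, 63.5 and 68.3 CPM (log2 fold change 1.54 ± 0.099, adjusted p = 7.89e-05). Dhrs3, a retinal reductase, rose (2.38 ± 0.39), as did Rara (1.65 ± 0.30) and the degrading enzyme Cyp26b1 (1.20 ± 0.30, a call lost without mouse 19, 26, 35 or 36 and with DESeq2). Aldh1a1 fell (-0.68 ± 0.21, a call lost without mouse 19, 26 or 35, with total-count scaling and with length and GC trends removed). Retinoid levels were not measured in these files.

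By class of gene, 3558 of 13084 protein-coding genes were called (27.2%), 1979 higher and 1579 lower. Long intergenic RNAs were called for 63 of 356 (17.7%), 14 higher and 49 lower, and antisense RNAs for 66 of 301 (21.9%), 8 higher and 58 lower. Of 13 tested histone genes 10 were called lower and none higher, where 11.9% of all genes were called lower. Leaving out 1 mouse gave 27 to 46 lower calls for long intergenic RNAs, the fewest without mouse 35, and 23 to 56 for antisense RNAs, the fewest without mouse 26. Without mice 19 and 35, whose untreated libraries held the most long intergenic RNA (7978 and 12199 CPM against 3224 to 4344 CPM in the other 8), 5 long intergenic RNAs were called higher and 7 lower, and 3 and 9 antisense RNAs. The part of these libraries and of transcript length in the splits was not tested.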
